A study of Homo sapiens with 9 samples.

Results

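The expression of 10 human glutathione and NRF2 redox genes was followed in ovarian cancer cells after exposure to sunitinib or to a second agent, compound 32. The genes were NFE2L2, KEAP1, GCLC, GCLM, GSS, GSR, GPX4, NQO1, TXNRD1 and SRXN1, taken by symbol from a count table of 58735 genes, and each symbol matched 1 row. Gene positions are those of GENCODE 29 on GRCh38, which the table's own positions follow. All 10 passed the filter on low counts that left 15232 genes to be tested. The cells were HEYA8, an established human line that the labels give as wild type and as high-grade serous ovarian cancer, grown in DMEM with serum and antibiotics. Compound 32 was given for 24 h in 3 samples, sunitinib, which blocks a range of receptor tyrosine kinases, for 24 h in 3 samples, and the DMSO vehicle for 24 h in 3 samples. All 9 samples carry the same batch label. The labels state neither doses nor what compound 32 is chemically or how it relates to sunitinib. The samples are described as biological replicates of 1 line, and p-values therefore measure the spread between these samples.

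NRF2, the product of NFE2L2, is a transcription factor that is kept low by KEAP1, an adaptor that presents it to a CUL3 ubiquitin ligase for degradation. When oxidants or electrophiles modify KEAP1, NRF2 accumulates, pairs with small MAF proteins and binds antioxidant response elements in its target genes, so that its activity is set largely at the protein level. Among the targets are the enzymes that make glutathione, the cell's main soluble thiol, and those that regenerate it and the thioredoxin system with NADPH. GPX4 uses glutathione to reduce lipid hydroperoxides and thereby restrains ferroptosis, an iron-dependent form of cell death that is much studied in ovarian cancer cells.

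Library totals ranged between 15498101 and 18006171 counts. Of 7 epithelial and ovarian markers, PAX8, WT1, KRT7, KRT8 and KRT18 were detected in all DMSO libraries, EPCAM was at most 1.78 CPM in them, and MUC16 was at 0 in 2 of 3 and at 0.118 CPM (a counts-per-million scale) in the other. Such markers do not establish the identity of a line. KRT7 was at 225 to 235 CPM in sunitinib and 65.3 to 74.3 CPM in DMSO libraries. WT1 was at 4.94 to 5.68 CPM in sunitinib and 10.8 to 12.9 CPM in DMSO libraries. VIM was high, at 3472 to 3710 CPM. The 5 leukocyte markers summed to at most 0.352 CPM in compound 32 libraries, 1.09 CPM in sunitinib libraries and 0.577 CPM in DMSO libraries. The 5 fibroblast markers summed to 2.54 to 3.75 CPM in compound 32, 1.22 to 2.64 CPM in sunitinib and 1.86 to 2.18 CPM in DMSO libraries, and the 3 endothelial markers, mostly CDH5, summed to 5.34 to 6.03 CPM in compound 32, 13.4 to 18.2 CPM in sunitinib and 7.31 to 10.0 CPM in DMSO libraries. Their part in the results was not tested. Sunitinib replicate 3 stood apart. It had 5.36% of counts in mitochondrially encoded genes and 6.96% in ribosomal protein genes, against 3.42 to 3.92% and 3.71 to 4.52% in the other 8 libraries. Its counts differed from those of the other sunitinib libraries by a chi-square of 46.4 and 45.3 per degree of freedom, against 1.86 to 3.22 for the other replicate pairs. Relative to the mean of sunitinib replicates 1 and 2, its CPM was between 1.00 and 1.13 times as high for KEAP1, TXNRD1, GPX4, GCLC, GSR and GCLM, 1.21 times for GSS, 1.33 times for NFE2L2, 1.40 times for NQO1 and 0.366 times for SRXN1. The part of those shares in the results was not tested, and results that rest on the library are given with and without it.

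Antioxidant response elements share the core TGACNNNGC, which was sought on both strands in the RefSeq promoter windows (GRCh38.p14) that run from 250 bases before to 50 after an annotated gene start. Windows were found for 8 of the 10 genes, and 3 of them, GCLM, TXNRD1 and KEAP1, held a match. Of all 27305 genes with a window, 16.1% held a match, so the core letters alone are common. The AP-1 element TGACTCA, which the core can contain when a GC follows, was in none of the 8 genes' windows and in 6.05% of all genes'. The matched stretches of a synthesis gene, a reductase gene and the NRF2 repressor gene are printed so that their letters can be compared. Each is 29 bases long and runs 5′ to 3′ on the strand named, with the core in capitals.
GCLM, chr1:93909446-93909474, plus strand: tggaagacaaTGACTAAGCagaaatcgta
TXNRD1, chr12:104286920-104286948, minus strand: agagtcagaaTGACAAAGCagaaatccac
TXNRD1, chr12:104215670-104215698, plus strand: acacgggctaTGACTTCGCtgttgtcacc
TXNRD1, chr12:104215761-104215789, minus strand: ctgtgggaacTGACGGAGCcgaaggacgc
KEAP1, chr19:10502784-10502812, plus strand: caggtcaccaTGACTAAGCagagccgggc
KEAP1, chr19:10502807-10502835, minus strand: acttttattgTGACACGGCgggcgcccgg
The GCLM stretch shared 19 of 29 bases with the TXNRD1 stretch listed after it and 17 of 29 with the first KEAP1 stretch, whose capitals are the same letters, TGACTAAGC. It shared 13, 13 and 9 of 29 bases with the other 3 stretches, and the searched core fixes 6 of them in every pair. The matches at chr12:104286920-104286948 and in KEAP1 lie in annotated exons of their gene, those in GCLM and at chr12:104215761-104215789 touch the outer end of the gene by 1 base, and the match at chr12:104215670-104215698 lies outside exons. A match describes letters only.

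Sunitinib cells differed from DMSO cells in these genes in both directions. GPX4 and GSS, the lipid peroxide reductase and the enzyme of the last step of glutathione synthesis, were higher in sunitinib than in DMSO cells, with log2 fold changes of 0.60 ± 0.08 and 0.28 ± 0.08 (± SE). GSR, GCLM and KEAP1 were lower, with log2 fold changes of -0.58 ± 0.07, -0.42 ± 0.08 and -0.35 ± 0.06. These 5 of 10 genes passed an adjusted p of 0.05 in edgeR's quasi-likelihood test with Benjamini-Hochberg adjustment over all genes, against 40.2% of all genes tested in this comparison, 20.3% higher and 19.9% lower, so the share called was near the background. Without sunitinib replicate 3, 2 were higher and 4 lower, GCLC being added, against 25.1% higher and 26.3% lower of all genes (51.4% in all). The median log2 fold change was -0.08 over the 10 genes and 0.02 over all genes tested. NFE2L2 itself and the NRF2 targets GCLC, NQO1, TXNRD1 and SRXN1 did not pass with all libraries. GCLM and GSR, which passed and were lower, are also counted among NRF2 targets here. In bulk RNA a lower value can come from fewer cells that carry a transcript or from less of it per cell, and these cannot be told apart.

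**Figure D1:**
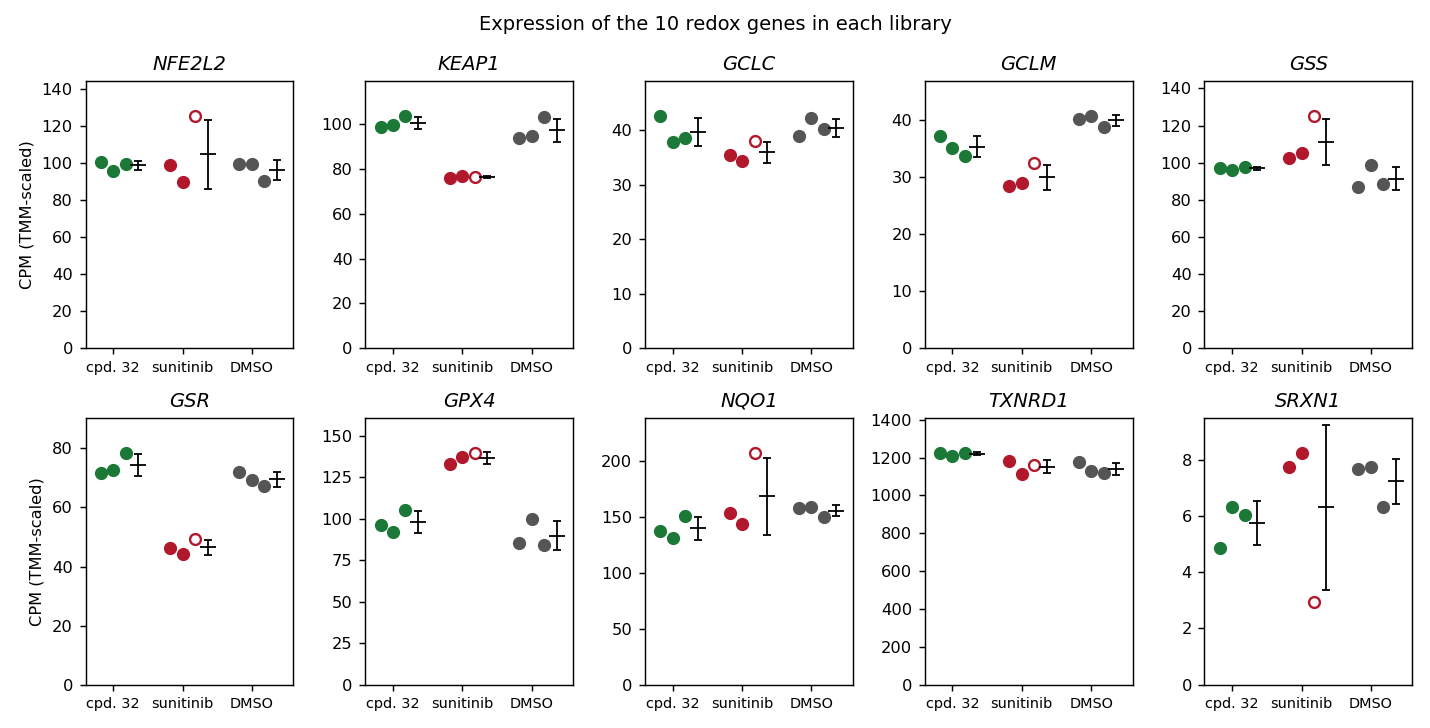
Expression of the 10 genes in each library in CPM after TMM scaling, with compound 32 (cpd. 32) on the left, sunitinib in the middle and DMSO on the right of each panel. Circles are libraries in the order replicate 1 to 3, the open circle is sunitinib replicate 3, and the bar beside each group is the mean ± SD (n = 3). KEAP1, GCLM and GSR sit lower and GPX4 and GSS higher in all 3 sunitinib libraries than in any other library, whereas the open circle alone lies far from its group for NFE2L2, NQO1 and SRXN1. Sunitinib and DMSO libraries did not overlap in 50.8% of all genes tested.

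Of the regulators, NFE2L2 (chr2:177227595-177392697, minus strand), which encodes NRF2, had 100.8, 95.9 and 99.7 CPM in compound 32 libraries, 99.1, 89.6 and 125.6 CPM in sunitinib libraries and 99.4, 99.6 and 90.4 CPM in DMSO libraries. The 3 groups overlapped and the highest value belonged to sunitinib replicate 3. The log2 fold change in sunitinib cells was 0.12 ± 0.11 (95% interval -0.11 to 0.35, adjusted p = 0.396), and -0.03 without replicate 3 (adjusted p = 0.658). In compound 32 cells it was 0.03 ± 0.11 (interval -0.20 to 0.27, adjusted p = 0.857). Of its exon bases, 1054 are shared with AC019080.1 on the same strand, which averaged 41.4 counts a library, and 54 with AGPS on the opposite strand. The sources used here do not say whether the counting used strand.

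KEAP1 (chr19:10486120-10503741, minus strand), which encodes the adaptor that targets NRF2 for degradation, had 98.7, 99.6 and 103.8 CPM in compound 32 libraries, 75.9, 76.8 and 76.6 CPM in sunitinib libraries and 93.9, 94.97 and 103.1 CPM in DMSO libraries. Every sunitinib library lay below every other library, and the compound 32 and DMSO libraries overlapped. The fold of sunitinib over DMSO was 0.786 (adjusted p = 0.00101), and it was 0.784 without replicate 3. Compound 32 cells were at 1.03 times the DMSO level (log2 0.05 ± 0.06, interval -0.09 to 0.18, adjusted p = 0.627) and at 1.32 times the sunitinib level (log2 0.40 ± 0.06, adjusted p = 0.000275). KEAP1 was lower in sunitinib than in DMSO cells, and lower in sunitinib than in compound 32 cells, in all 16 alternative analyses run, with log2 fold changes of -0.38 to -0.27 against DMSO.

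Glutathione synthesis starts with glutamate-cysteine ligase, whose catalytic subunit is encoded by GCLC and whose modifier subunit is encoded by GCLM. GCLC (chr6:53497341-53616970, minus strand) had 42.7, 37.9 and 38.6 CPM in compound 32 libraries, 35.5, 34.3 and 38.1 CPM in sunitinib libraries and 38.9, 42.3 and 40.2 CPM in DMSO libraries. The sunitinib libraries lay just below the DMSO libraries with no overlap, as in 50.8% of all genes tested, and the fold was 0.889 (log2 -0.17 ± 0.08, adjusted p = 0.102). When sunitinib replicate 3 was left out the log2 fold change was -0.21 and passed the test (adjusted p = 0.0123). Against DMSO, GCLC in compound 32 cells had a log2 fold change of -0.03 ± 0.08 (interval -0.20 to 0.14, adjusted p = 0.844), with the groups overlapping.

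GCLM (chr1:93885205-93909456, minus strand) had 37.2, 35.0 and 33.6 CPM in compound 32 libraries, 28.4, 28.9 and 32.4 CPM in sunitinib libraries and 40.2, 40.7 and 38.7 CPM in DMSO libraries. None of the 3 groups overlapped, and their order was DMSO highest, compound 32 next and sunitinib lowest. The fold of sunitinib over DMSO was 0.750 (adjusted p = 0.00148), and 0.718 without replicate 3. Compound 32 over DMSO was 0.885 (log2 -0.18 ± 0.08, interval -0.35 to -0.01), with an unadjusted p of 0.0438 and an adjusted p of 0.132. It passed only in 2 of 16 alternatives, the fit to the 6 compound 32 and DMSO libraries and the fit without sunitinib replicate 3 (log2 -0.17, adjusted p = 0.0274). Compound 32 over sunitinib was 1.18 (log2 0.24 ± 0.08, adjusted p = 0.0252), a call that was lost in 7 of 16 alternatives, with adjusted p up to 0.136. GCLM is thus a gene for which the sunitinib difference from DMSO held in every alternative run and the differences that involve compound 32 did not.

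GSS (chr20:34928433-34956027, minus strand) encodes glutathione synthetase, which adds glycine to the dipeptide that glutamate-cysteine ligase makes. It had 97.0, 96.1 and 97.6 CPM in compound 32 libraries, 102.4, 105.5 and 125.2 CPM in sunitinib libraries and 87.1, 98.6 and 88.6 CPM in DMSO libraries. All sunitinib libraries lay above all others, with replicate 3 the highest. The fold of sunitinib over DMSO was 1.21 (adjusted p = 0.0200), and 1.13 without replicate 3 (log2 0.18 ± 0.05, adjusted p = 0.00342). The call was lost when DMSO replicate 1 or DMSO replicate 3 was left out and when the 6 sunitinib and DMSO libraries were fitted alone, with adjusted p up to 0.0956. In compound 32 cells the log2 fold change against DMSO was 0.08 ± 0.08 (interval -0.10 to 0.27, adjusted p = 0.534), and against sunitinib it was -0.20 ± 0.08 (adjusted p = 0.0712). The synthesis genes therefore did not move together under sunitinib: the modifier subunit of the first step was lower and the enzyme of the last step was higher.

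GSR, on chromosome 8, encodes glutathione reductase, which returns oxidised glutathione to its reduced form with NADPH. It had 71.8, 72.7 and 78.5 CPM in compound 32 libraries, 46.2, 44.1 and 49.3 CPM in sunitinib libraries and 72.1, 69.2 and 67.2 CPM in DMSO libraries. The highest sunitinib library lay well below the lowest of the other 6, and the compound 32 and DMSO libraries overlapped. The fold of sunitinib over DMSO was 0.669 (adjusted p = 7.12e-05), and 0.650 without replicate 3. Compound 32 over DMSO was 1.07 (log2 0.10 ± 0.07, interval -0.06 to 0.25, adjusted p = 0.363), and compound 32 over sunitinib was 1.60 (log2 0.68 ± 0.07, adjusted p = 1.34e-05). Of the 10 genes GSR had the widest range of group means, 0.67 on the log2 scale.

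GPX4 (chr19:1103926-1106791, plus strand), the selenoprotein that reduces lipid hydroperoxides in membranes, had 96.2, 92.1 and 105.2 CPM in compound 32 libraries, 132.6, 137.0 and 139.8 CPM in sunitinib libraries and 85.6, 99.6 and 84.2 CPM in DMSO libraries. The lowest sunitinib library lay above every other library, and replicate 3 of sunitinib was close to the other 2. The fold of sunitinib over DMSO was 1.52 (adjusted p = 0.000127), and 1.50 without replicate 3. Compound 32 over DMSO was 1.09 (log2 0.12 ± 0.08, interval -0.05 to 0.30, adjusted p = 0.310), and compound 32 over sunitinib was 0.717 (log2 -0.48 ± 0.08, adjusted p = 0.000417). The GSR and GPX4 differences of sunitinib from DMSO, and of compound 32 from sunitinib, passed in all 16 alternatives.

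NQO1 (chr16:69706996-69726951, minus strand), a quinone reductase used as a readout of NRF2 activity, had 136.9, 131.0 and 151.0 CPM in compound 32 libraries, 153.4, 143.7 and 207.2 CPM in sunitinib libraries and 158.1, 158.3 and 149.7 CPM in DMSO libraries. Sunitinib replicate 3 was the highest of the 9 libraries, and sunitinib replicates 1 and 2 lay within or below the DMSO range. The log2 fold change of sunitinib over DMSO was 0.11 ± 0.12 (interval -0.14 to 0.37, adjusted p = 0.470), and -0.07 without replicate 3 (interval -0.17 to 0.04, adjusted p = 0.283). Compound 32 over DMSO was -0.15 ± 0.12 on the log2 scale (adjusted p = 0.397). The value was again -0.15, with an SE of 0.05, without sunitinib replicate 3, and it passed (adjusted p = 0.00516). Compound 32 over sunitinib was -0.27 ± 0.12 (adjusted p = 0.0804), and -0.09 without replicate 3 (adjusted p = 0.136).

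TXNRD1 (chr12:104215779-104350305, plus strand) encodes the cytosolic thioredoxin reductase, a selenoprotein. It had 1226, 1210 and 1226 CPM in compound 32 libraries, 1183, 1113 and 1160 CPM in sunitinib libraries and 1178, 1128 and 1117 CPM in DMSO libraries. The compound 32 libraries lay above all others by a small margin, and the sunitinib and DMSO libraries overlapped. Sunitinib over DMSO was 1.01 (log2 0.01 ± 0.06, interval -0.12 to 0.15, adjusted p = 0.879). Compound 32 over DMSO was 1.07 (log2 0.10 ± 0.06, adjusted p = 0.311), and it passed without sunitinib replicate 3 at the same fold of 1.07 (adjusted p = 0.00732). TXNRD1 was the member with the most counts and the narrowest interval around a fold of 1 for sunitinib once replicate 3 was left out, -0.06 to 0.08.

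SRXN1 (chr20:646615-653370, minus strand) encodes sulfiredoxin, which reactivates overoxidised peroxiredoxins. It had 75, 101 and 101 counts in compound 32 libraries, 146, 133 and 45 counts in sunitinib libraries and 118, 129 and 98 counts in DMSO libraries, the fewest of the 10 genes. In CPM these were 4.85, 6.32 and 6.04 in compound 32, 7.73, 8.25 and 2.93 in sunitinib and 7.65, 7.73 and 6.30 in DMSO. Sunitinib replicate 3 was the lowest of all libraries, and the other sunitinib libraries were the highest or level with the highest DMSO libraries. The log2 fold change of sunitinib over DMSO was -0.19 ± 0.29 (interval -0.82 to 0.44, adjusted p = 0.631), and 0.14 without replicate 3 (adjusted p = 0.469). For compound 32 over DMSO it was -0.33 ± 0.29 (adjusted p = 0.469). Compound 32 over sunitinib was -0.14 ± 0.29 (adjusted p = 0.707), and -0.47 ± 0.16 without replicate 3, where it passed (adjusted p = 0.00897). Of the 2698 exon bases of SRXN1, 85.0% are shared with the protein-coding gene AL121758.1 on the same strand, which averaged 3.22 counts. The sources used here do not say how reads in shared exons were assigned, so the level of SRXN1 is uncertain.

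For compound 32 against DMSO as a whole, edgeR's quasi-likelihood test called 0 of the 10 genes at an adjusted p of 0.05, against 22.3% of all genes tested, 12.0% higher and 10.3% lower. DESeq2 also called 0, and GCLM was the 1 gene with an unadjusted p under 0.05. Without sunitinib replicate 3, which enters through the spread that all groups share, 3 of 10 passed, against 42.0% of all genes (21.6% higher, 20.5% lower): TXNRD1 was higher, and GCLM and NQO1 were lower. When the compound 32 and DMSO libraries were fitted alone, 43.9% of all genes and the same 3 of the 10 passed. Their folds of 1.07, 0.886 and 0.901 were small in either case. The values without overlap between compound 32 and DMSO libraries were those of GCLM and TXNRD1, 2 of 10 genes, against 49.1% of all genes tested.

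Compound 32 differed from sunitinib in 4 of the 10 genes, against 49.2% of all genes tested, 24.1% higher and 25.2% lower. KEAP1, GCLM and GSR were higher in compound 32 cells and GPX4 was lower. The sunitinib libraries also enter the comparison with DMSO, so these values are not independent of those above. The libraries of these groups did not overlap for 6 of the 10 genes, the 4 called genes, TXNRD1 and GSS, against 56.9% of all genes. Without sunitinib replicate 3, 7 of 10 passed, against 58.7% of all genes (29.7% higher): GCLC and TXNRD1 were also higher, with log2 fold changes of 0.19 and 0.09, and SRXN1 was also lower. For GSS and NQO1 the intervals of the difference were -0.38 to -0.01 and -0.53 to -0.01 on the log2 scale with all libraries, and -0.20 to 0.01 and -0.19 to 0.01 without replicate 3. For NFE2L2 the interval was -0.32 to 0.15. The doses of the agents are not stated, so the comparison holds for the exposures as made.

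**Figure D2:**
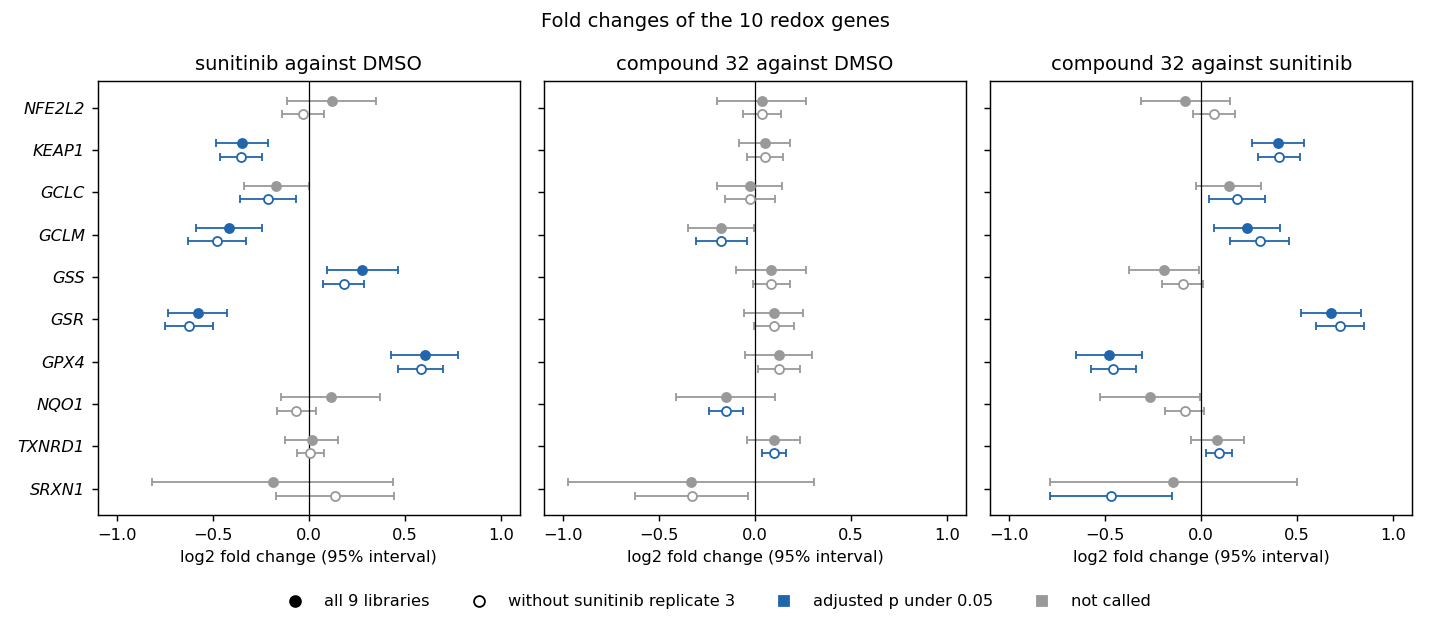
Log2 fold changes of the 10 genes (dots) with 95% intervals (bars) from edgeR in the 3 comparisons; a value above 0 is higher in the group named first. Filled dots use all 9 libraries, open dots leave out sunitinib replicate 3, and blue marks an adjusted p under 0.05. The sunitinib values of KEAP1, GCLM, GSR and GPX4 stay at -0.35, -0.42, -0.58 and 0.60 or move by under 0.07, and the compound 32 values against DMSO all lie between -0.33 and 0.12.

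Levels between genes were compared per kilobase of exon. In DMSO cells TXNRD1 was the highest at 170 ± 5 CPM per kb (SD, n = 3), above 98.9% of all genes tested. NQO1 at 47.7 ± 1.5 and GPX4 at 44.5 ± 4.2 CPM per kb came next, and these neighbours did not differ beyond their spread. KEAP1 followed at 25.9 ± 1.3, then GSR at 18.5 ± 0.66, NFE2L2 at 16.1 ± 0.88 and GSS at 14.8 ± 1.0 CPM per kb. NFE2L2 and GSS lay within their spread of each other. The synthesis subunits were lowest, GCLM at 7.35 ± 0.18 and GCLC at 4.68 ± 0.20 CPM per kb, the GCLC value being above 52.8% of all genes tested. In sunitinib cells GPX4, at 67.6 ± 1.8 CPM per kb, was above NQO1, at 51.7 ± 10.5 CPM per kb, and GSS, at 18.0 ± 2.0, was above GSR, at 12.4 ± 0.69 CPM per kb. SRXN1 was left out of this order because of its shared exons.

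Ratios within a library do not depend on its scaling, and 3 pairs with linked roles, chosen after their values had been seen, are described without a test. The ratio of GPX4 to GSR per kilobase was 2.50, 2.36 and 2.50 in compound 32 libraries, 5.35, 5.78 and 5.28 in sunitinib libraries and 2.21, 2.68 and 2.33 in DMSO libraries. Its mean was 5.47 ± 0.27 in sunitinib cells, 2.45 ± 0.08 in compound 32 cells and 2.41 ± 0.24 in DMSO cells. Sunitinib replicate 3 lay with its group. GPX4 was higher and GSR lower in sunitinib cells, so this ratio restates those differences. The ratio of the catalytic to the modifier subunit, GCLC to GCLM, averaged 0.706 ± 0.024 in compound 32 cells, 0.755 ± 0.026 in sunitinib cells and 0.637 ± 0.025 in DMSO cells, and every treated library lay above every DMSO library. The ratio of KEAP1 to NFE2L2 averaged 1.62 ± 0.06 in compound 32 cells, 1.18 ± 0.20 in sunitinib cells and 1.61 ± 0.18 in DMSO cells. All 3 sunitinib libraries lay below the others in that ratio, with replicate 3 the lowest at 0.969.

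**Figure D3:**
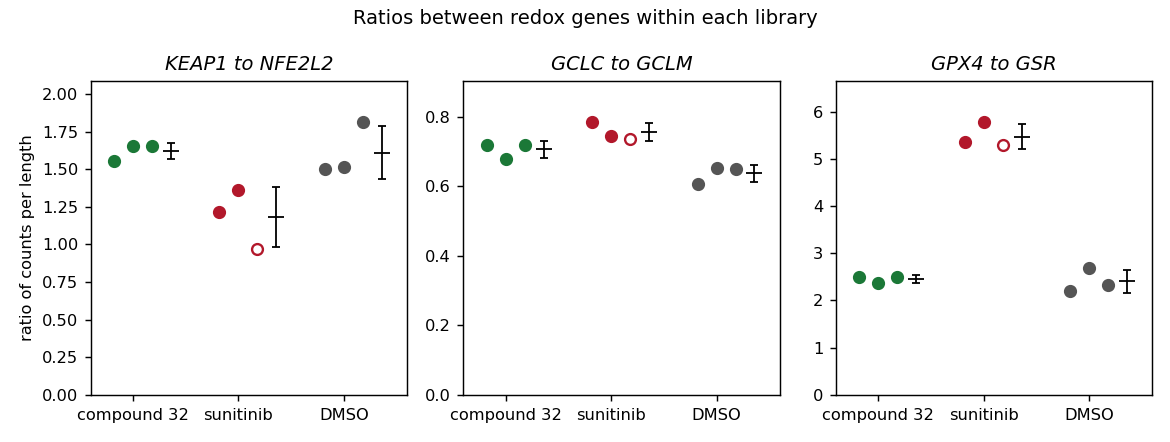
Ratios of counts per kilobase within each library for KEAP1 to NFE2L2, GCLC to GCLM and GPX4 to GSR, with compound 32, sunitinib and DMSO from left to right. Circles are libraries, the open circle is sunitinib replicate 3, and bars are the mean ± SD (n = 3). The sunitinib libraries lie between 5.28 and 5.78 for GPX4 to GSR, and the other 6 lie between 2.21 and 2.68.

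For the 3 members with the widest range of group means, the protein-coding genes nearest in pattern were sought among 9073 genes by the root mean square difference of centred log2 CPM over the 9 libraries. Nearest to GSR were BAG3, at a distance of 0.05, NUDCD1, at 0.05, and ICMT, at 0.06, against a GSR range of 0.67. Nearest to GPX4 were ID1, CTSD and NOL3, each at 0.06, against a range of 0.61. Nearest to GCLM were SFPQ, at 0.04, SERBP1, at 0.04, and FUBP1, at 0.05, against a range of 0.41.

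Around the 10 genes, 10 wider redox lists with 143 different symbols were counted, of which 127 were tested. They were chosen with earlier results of these data known, and some contain members of the 10. The shares of all genes tested that were called are the background for every list: 20.3% higher and 19.9% lower for sunitinib against DMSO, and 12.0% higher and 10.3% lower for compound 32 against DMSO. Without sunitinib replicate 3 they were 25.1% and 26.3% for sunitinib, and 21.6% and 20.5% for compound 32. Of 14 genes of glutathione synthesis and turnover, 7 were higher and 4 were lower in sunitinib than in DMSO cells, with a median log2 fold change of 0.46, against 0.02 over all genes. This was 78.6% of the list, against 40.2% of all genes, and 8 higher and 5 lower without sunitinib replicate 3, against 51.4%. When other single libraries were left out, 6 to 7 were higher and 2 to 3 lower. This was 64.3% to 71.4% of the list, against 30.2% to 37.7% of all genes. The largest value was that of CHAC1, a glutathione-degrading enzyme, with means of 8.92 ± 1.40 CPM in compound 32, 42.9 ± 2.2 CPM in sunitinib and 9.92 ± 1.28 CPM in DMSO cells (sunitinib over DMSO, log2 2.11 ± 0.12, adjusted p = 3.59e-07). OPLAH (1.83), CBS (1.71) and CTH (0.73), chosen for naming after their values were seen, were also higher. OPLAH averaged only 0.88 CPM in DMSO cells. CBS was scattered, at 22.1 ± 8.1 CPM in sunitinib and 6.77 ± 3.17 CPM in DMSO cells. The 4 lower genes were GCLM, CHAC2 (-0.81), GGCT (-0.42) and ABCC1 (-0.39), the last 3 also named after their values were seen. SLC7A11, a subunit of the cystine importer, had 83.9, 86.7 and 79.4 CPM in compound 32 libraries, 288.8, 266.8 and 199.4 CPM in sunitinib libraries and 128.6, 114.3 and 113.6 CPM in DMSO libraries, with no overlap between groups. It was higher in sunitinib cells (log2 1.08 ± 0.12, adjusted p = 3.04e-05) and lower in compound 32 cells (-0.51 ± 0.12, adjusted p = 0.00957) than in DMSO cells. Its partner SLC3A2 was higher in sunitinib cells (0.70 ± 0.07, adjusted p = 1.19e-05), and for compound 32 its value was -0.05 (adjusted p = 0.641). In compound 32 cells SLC7A11 was the 1 gene of the 14 that passed, 7.14% against 22.3% of all genes, and it did not pass when compound 32 replicate 3 was left out. The counts were 2 higher and 3 lower without sunitinib replicate 3, 35.7% against 42.0%. The cystine importer transcripts and GSS were thus higher in sunitinib cells, and GCLM was lower.

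Of 36 genes on the NRF2 target list, 10 were higher and 3 were lower in sunitinib than in DMSO cells, with a median of 0.10, which was 36.1% of the list against 40.2% of all genes. Without sunitinib replicate 3, 10 were higher and 11 lower, with a median of 0.02, which was 58.3% against 51.4%. IDH1, which supplies NADPH, was higher in sunitinib cells (log2 0.78 ± 0.08, adjusted p = 1.68e-05). HMOX1, the haem oxygenase, had 34.8, 32.9 and 33.9 CPM in compound 32 libraries, 23.8, 22.2 and 23.0 CPM in sunitinib libraries and 20.7, 19.2 and 22.4 CPM in DMSO libraries. It was higher in compound 32 cells than in DMSO cells (0.71 ± 0.08, adjusted p = 0.000136), and for sunitinib its value was 0.15 (adjusted p = 0.182). In compound 32 cells 4 of the 36 were higher, ABHD4 (0.64) and OSGIN1 (0.54) among them, and SLC7A11 alone was lower, 13.9% of the list against 22.3% of all genes. The counts were 7 higher and 8 lower without sunitinib replicate 3, 41.7% against 42.0%. In sunitinib cells ABHD4 was also higher than in DMSO cells (0.55, adjusted p = 0.000865), and OSGIN1 did not pass (0.20, adjusted p = 0.0997). The log2 fold change of compound 32 over sunitinib was 0.09 for ABHD4 (adjusted p = 0.448) and 0.34 for OSGIN1 (adjusted p = 0.00742). ME1 did not pass in either comparison with DMSO, with values of 0.14 for sunitinib and 0.03 for compound 32. PRDX1 had a value of -0.13 for sunitinib, and -0.22 without replicate 3, where it passed (adjusted p = 1.51e-06), but 24.9% of its exon bases are shared with MMACHC on the opposite strand.

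Of 14 NRF2 regulators, 2 were higher and 2 lower in sunitinib cells, and 1 was higher and 1 lower in compound 32 cells. These were 28.6% and 14.3% of the list, against 40.2% and 22.3% of all genes. NFE2L1, a relative of NRF2 that drives proteasome genes, was higher in sunitinib cells (log2 0.66 ± 0.07, adjusted p = 2.06e-05). MAFF, a small MAF partner, averaged 74.0 ± 6.5 CPM in compound 32, 44.6 ± 0.8 CPM in sunitinib and 37.0 ± 2.7 CPM in DMSO cells, and was higher in both (compound 32, 1.00 ± 0.08, adjusted p = 1.01e-05, and sunitinib, 0.27 ± 0.08, adjusted p = 0.0243). CUL3, the ligase scaffold that KEAP1 recruits, was lower in both (-0.26, adjusted p = 0.0212 for compound 32, and -0.34, adjusted p = 0.00262 for sunitinib). The CUL3 call for compound 32 was lost when any 1 compound 32 library was left out. Then 0 of the 14 were lower, against 6.19% to 6.42% of all genes. For sunitinib, 1 of the 14 was higher, in place of 2, without sunitinib replicate 2, DMSO replicate 1 or DMSO replicate 3. Of all genes, 18.6%, 14.5% and 15% were higher in those fits. The counts without sunitinib replicate 3 were 5 higher and 3 lower for sunitinib and 6 higher and 2 lower for compound 32, each 57.1% of the list, against 51.4% and 42.0% of all genes.

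Among 11 glutathione peroxidases, GSR and glutaredoxins, 3 were higher and 2 lower in sunitinib cells, GLRX (log2 0.84) and GPX1 (0.43) joining GPX4, and GLRX (0.52) was the 1 called in compound 32 cells. These were 45.5% and 9.09% of the list, against 40.2% and 22.3% of all genes. Leaving out sunitinib replicate 3 gave 3 higher and 3 lower for sunitinib and 3 higher for compound 32, 54.5% and 27.3% against 51.4% and 42.0%. Of 11 glutathione S-transferases, 6 passed in sunitinib cells, all higher (median 0.48, 54.5% of the list against 40.2% of all genes), and 5 were higher and 2 lower without replicate 3 (median 0.20, 63.6% against 51.4%). When other single libraries were left out, 3 to 6 passed, where 30.2% to 37.7% of all genes were called. The fewest were without DMSO replicate 3, 27.3% against 31.1% of all genes. The fit to the 6 sunitinib and DMSO libraries called 4, 36.4% against 33.9%. GSTZ1 (1.05) and GSTK1 (0.60) were among the genes called with all libraries. For compound 32 the median was 0.07, with values of 0.38 and 0.03 for GSTZ1 and GSTK1, which did not pass. When replicate 3 of sunitinib was left out, 3 of 11 were higher in compound 32 cells, GSTZ1 (0.38, adjusted p = 0.0209) among them. This was 27.3% of the list, against 42.0% of all genes. Of 17 thioredoxin, peroxiredoxin and methionine sulfoxide reductase genes, 5 were higher and 1 lower in sunitinib cells, 35.3% against 40.2% of all genes, and 4 were higher and 4 lower without replicate 3, 47.1% against 51.4%. TXNIP, the thioredoxin-binding protein, averaged 42.6 ± 4.9 CPM in compound 32, 77.7 ± 8.4 CPM in sunitinib and 15.9 ± 2.5 CPM in DMSO cells, and was the 1 of these 17 called in compound 32 cells (1.42 ± 0.13, adjusted p = 2.08e-05), 5.88% against 22.3% of all genes. With sunitinib replicate 3 left out, 4 of the 17 were higher and 1 lower in compound 32 cells, 29.4% against 42.0%. TXN itself had 266.4, 257.7 and 262.8 CPM in compound 32 libraries, 210.1, 232.5 and 426.9 CPM in sunitinib libraries and 254.3, 261.4 and 233.6 CPM in DMSO libraries. Its log2 value for sunitinib was 0.21 (adjusted p = 0.439), and -0.18 without replicate 3 (adjusted p = 0.000825), so the sign rests on that library.

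Of 16 genes of NADPH supply, 7 were higher and 3 lower in sunitinib cells, 62.5% against 40.2% of all genes, and 8 were higher and 4 lower without replicate 3, 75% against 51.4%. MTHFD1, a folate-cycle enzyme, was lower (log2 -0.98 ± 0.06) and the mitochondrial ALDH1L2 was higher (2.23 ± 0.16). In compound 32 cells IDH2 was higher (1.16 ± 0.12) and ME3 was lower (-0.32 ± 0.07), and without sunitinib replicate 3 the counts were 2 higher and 3 lower. These were 12.5% and 31.2% of the list, against 22.3% and 42.0% of all genes. Of 3 superoxide dismutase and catalase genes, CAT was higher in sunitinib cells (0.31 ± 0.07) and SOD2 in compound 32 cells (0.31 ± 0.06). Each was 33.3% of the list, against 40.2% and 22.3% of all genes. In the fit without sunitinib replicate 3 all 3 passed for sunitinib, 2 higher and 1 lower, and 2 were higher for compound 32. The shares were then 100% and 66.7%, against 51.4% and 42.0% of all genes. Of 21 ferroptosis genes, 8 were higher and 5 lower in sunitinib cells, and 7 were higher and 2 lower in compound 32 cells. These were 61.9% and 42.9% of the list, against 40.2% and 22.3% of all genes, and 71.4% and 42.9% without sunitinib replicate 3, against 51.4% and 42.0%. For compound 32, 4 were higher when compound 32 replicate 1, 2 or 3 or DMSO replicate 1 or 3 was left out. Without DMSO replicate 2, 5 were higher. In those fits 7.44% to 7.8% of all genes were higher, against 12.0% with all libraries. TFRC, the transferrin receptor that brings in iron, averaged 1532 ± 48 CPM in compound 32, 503 ± 42 CPM in sunitinib and 935 ± 38 CPM in DMSO cells. It was lower in sunitinib cells (-0.89 ± 0.08, adjusted p = 5.51e-06) and higher in compound 32 cells (0.71 ± 0.08, adjusted p = 7.26e-05), and MBOAT2 also was lower in sunitinib (-0.28) and higher in compound 32 cells (0.59). Of 8 genes that serve the synthesis of selenoproteins such as GPX4 and TXNRD1, SEPHS2 (0.27) and SECISBP2 (0.32) were higher in sunitinib cells, and SEPHS2 (-0.60) and SEPSECS (-0.52) were lower in compound 32 cells, each pair being 25% of the list, against 40.2% and 22.3% of all genes. Without sunitinib replicate 3, 3 were higher in sunitinib cells and 5 were lower in compound 32 cells. These were 37.5% and 62.5% of the list, against 51.4% and 42.0% of all genes. GPX4 and TXNRD1 themselves had values of 0.12 and 0.10 for compound 32, which did not pass.

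**Figure D4:**
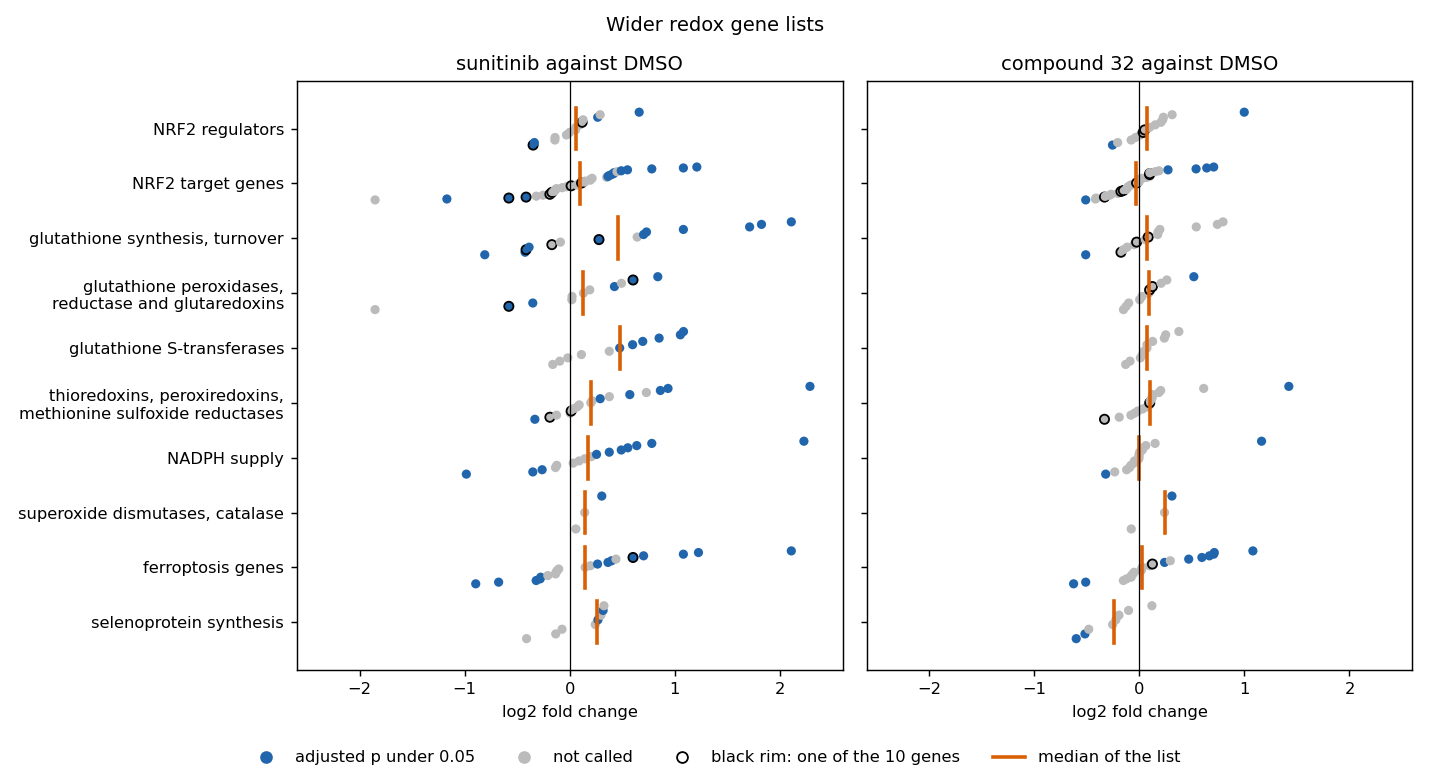
Log2 fold changes of the tested genes of the 10 wider lists for sunitinib over DMSO (left) and compound 32 over DMSO (right). Each dot is a gene, blue where the adjusted p was under 0.05, with a black rim for the 10 genes described above, and the orange bar is the median of the list. The glutathione synthesis and turnover list has its median at 0.46 for sunitinib and 0.07 for compound 32.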

How the data were processed

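Poly(A) RNA of 9 HEYA8 samples was sequenced. Raw read counts per gene were deposited by the authors as 1 table. Per the submitters' processing notes the tools include fastp, HISAT2 2.0.5, featureCounts, DESeq2 and edgeR, and the builds named are hg38 and mm10. Gene positions in the table equal GENCODE 29 on GRCh38 for 58724 of 58735 genes. The sources used here do not give strand use or the treatment of ambiguous reads.

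Counts were fitted with edgeR 4.0.16 in R 4.3.3: filterByExpr by group (15232 genes kept), TMM scaling, a group-means model over all 9 libraries with robust quasi-likelihood dispersion, and Benjamini-Hochberg adjustment over all genes tested, with calls at an adjusted p under 0.05. The SE is the log2 fold change divided by the root of the F statistic, and 95% intervals use the t distribution. CPM use TMM-scaled totals of the tested genes. The code was tested on simulated counts. Marker levels use library totals. DESeq2 1.42.0, other scalings, no filter, fits to 6 libraries, the number in the titles as a block, and leaving out each library were the alternatives.

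The 10 genes and the lists were chosen with earlier results of these data known. From each list the 3 called genes with the smallest p in a comparison were candidates for naming, beside HMOX1, SLC7A11, PRDX1, TXN, ME1, TXNIP and CHAC1. Of the lists' 143 symbols, 1 had no row used here and 15 were too low to test. SOD2 was on 2 rows, and the row with more reads was used. A gene that the naming rule covers is not reported here.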

Additional observations from a re-analysis of the deposited data

How the results depend on the processing

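The 10 genes' log2 fold changes were recomputed under 16 alternatives. Fitting the 6 libraries compared gave 1 of 10 genes higher and 3 lower for sunitinib against DMSO, against 17.3% and 16.6% of all genes. For compound 32 against DMSO it gave 1 higher and 2 lower, against 22.4% and 21.5% of all genes. Over all genes these were 3258 higher and 3114 lower, where the full fit had 1830 and 1571, or 12.0% and 10.3%. For compound 32 against sunitinib, 2 of the 10 were higher and 3 lower with upper-quartile factors (19.7% and 30.9% of all genes), 2 and 3 with library totals (20.3% and 29.3%), and 3 and 2 with no filter (12.8% and 12.3%). With upper-quartile factors the median over all genes moved to 0.10 for sunitinib against DMSO and to -0.12 for compound 32 against sunitinib, and the share of calls that were higher was 63.1% and 39.0%, against 50.4% and 48.9% with TMM. With library totals alone it was 60.2% and 40.9%.

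Leaving out 1 library at a time gave 1 to 2 of the 10 genes higher and 3 to 4 lower for sunitinib against DMSO, where 30.2% to 51.4% of all genes were called. For compound 32 against DMSO it gave 0 to 1 higher and 0 to 2 lower, where 13.6% to 42.0% of all genes were called. For compound 32 against sunitinib it gave 2 to 5 higher and 1 to 2 lower, where 40.5% to 58.7% of all genes were called. Over all genes, compound 32 against DMSO then had 1168 to 3359 higher and 968 to 3189 lower, the highest counts without sunitinib replicate 3.

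Signs turned for values that had not passed. With no filter, TXNRD1 was -0.022 for sunitinib against DMSO, and with upper-quartile factors it was -0.0030 for compound 32 against sunitinib. Leaving out 1 library at a time, log2 fold changes spanned, for sunitinib against DMSO, -0.012 to 0.033 for TXNRD1, -0.031 to 0.215 for NFE2L2, -0.065 to 0.209 for NQO1 and -0.419 to 0.139 for SRXN1. The last 3 turned without sunitinib replicate 3. For compound 32 against DMSO they spanned -0.086 to 0.0010 for GCLC and -0.013 to 0.054 for NFE2L2, and for compound 32 against sunitinib -0.470 to 0.081 for SRXN1 and -0.185 to 0.068 for NFE2L2. The cause was not tested.

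Deviations of same-numbered libraries from their group means correlated between -0.082 and 0.08, and those of differently numbered libraries between -0.069 and 0.081. With 3 libraries in each group, these values cannot decide whether the numbers in the titles pair the samples. With the number as a block, the 10 genes' counts of calls were as in the fit without it. They were 2 higher and 3 lower for sunitinib, 0 and 0 for compound 32, and 3 and 1 between the agents. Over all genes, 2846 were higher and 2912 lower for sunitinib, 1559 and 1319 for compound 32, and 3535 and 3639 for compound 32 against sunitinib. These were 37.8%, 18.9% and 47.1% of all genes tested.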
